A study of Mus musculus and Homo sapiens with 352 samples.

Results

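The 4 Hox clusters and the clustered protocadherin genes were examined in fixed windows of the mouse genome (build mm9) for their CTCF sites and for the chromatin loops anchored at them. The windows were HoxA at chr6:51700000-52700000, HoxB at chr11:95700000-96700000, HoxC at chr15:102300000-103300000, HoxD at chr2:74000000-75200000 and protocadherin at chr18:36800000-38100000, together 5.5 Mb. Every CTCF peak and every loop anchor overlapping a window was taken, whatever its strength. This gave 649 of the 125439 entries of 4 lists, namely 190 of 39438 CTCF peaks of CH12 cells, 294 of 59978 CTCF peaks of B cells, 78 of 12476 loop anchors of CTCF mutant CH12 cells and 87 of 13547 loop anchors of wild-type CH12 cells.

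The loops were measured by ChIA-PET, in which DNA ends ligated within CTCF-bound chromatin are sequenced in pairs, and each listed interaction has a count of supporting tags. The mutant library (genotype CTCFmZF9to11) came from CH12, a lymphoma line of mouse B cell origin, with CTCF mutated at zinc fingers 9 to 11, and the wild-type library came from the same line with the genotype WT. The sources used here do not say whether the mutant line is a single clone. The CTCF ChIP-seq peaks were deposited as 1 list for wild-type CH12 cells and 1 list for resting and activated B cells. The CH12 group has 3 libraries in the labels. For B cells the labels include 2 CTCF libraries of wild-type spleen B cells activated for 24 h. They also include CTCF libraries of wild-type B cells activated for longer, some of them labelled HU treated. The sources used here do not say which libraries entered the B cell list.

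CTCF recognises an asymmetric DNA motif through its zinc fingers, and it halts cohesin as cohesin extrudes chromatin, so that many loops end at its sites. Hox genes encode homeodomain transcription factors that set position along the body axis, and their order in each cluster follows the order in which they act. HoxD is known from limb studies to lie between a regulatory domain on either side, and CTCF sites inside the HoxA and HoxD clusters are known to separate active from silenced genes. The clustered protocadherins are cell surface adhesion proteins that give neurons their identity, and in neurons CTCF joins the promoter of a chosen gene to distal enhancers.

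In RefSeq gene order (assembly GRCm38.p6, used here for names and neighbours only), HoxA holds 11 Hox genes between Skap2 and Evx1, with the microRNA gene Mir196b among them. HoxB holds 10 between Ttll6 and Skap1, with Mir196a-1 and Mir10a. HoxC holds 9 between Calcoco1 and Smug1, with Mir196a-2 and Mir615. HoxD holds 9 between Evx2 and Mtx2, with Mir10b. The protocadherin cluster lies between Zmat2 and Diaph1. In this gene set it holds 57 protocadherin genes, 14 of the alpha family, 22 of the beta family and 21 of the gamma family. Another 5 coding genes lie among them. No mm9 annotation or sequence was used, so which peak or anchor lies at which gene, and which way each CTCF motif points, were not analysed here.

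Across the genome the mutant list held 11820 interactions with 82222 tags and the wild-type list 11534 with 74198 tags. Each genotype had 1 library, so every comparison between the ChIA-PET lists is between libraries and not between genotypes, and no difference has a replicate check. The lists start at 3 tags. An interaction absent from a list may therefore have had up to 2 tags, or may lack a peak call, since interactions were mapped to CTCF peak calls. Intervals are exact 95% intervals that cover counting error only.

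CTCF sites were dense around HoxB, HoxC and the protocadherins in both lists, and around HoxD their density was not distinguishable from that of the whole lists. In the CH12 list HoxC had 65.0 peaks per Mb (50.2 to 82.9) and HoxB 53.0 (39.7 to 69.3), against 15.4 over the whole list. These were 4.23 (3.27 to 5.40) and 3.45 (2.59 to 4.52) times the density of the whole list. The protocadherin window had 26.9 peaks per Mb, 1.75 times the whole list (1.22 to 2.44), and HoxA had 20.0. HoxD had 14.2 peaks per Mb, 0.923 times the whole list (0.538 to 1.48). The intervals of HoxA (0.796 to 2.01) and HoxD included a ratio of 1 in this list.

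The B cell list differed in this order in placing HoxB above HoxC. HoxB had 85.0 peaks per Mb (67.9 to 105.1), HoxC 74.0 (58.1 to 92.9) and protocadherin 58.5 (46.1 to 73.2), against 23.4 over the whole list. The ratio to the whole list was 3.64 in HoxB, 3.17 in HoxC and 2.50 in protocadherin (1.97 to 3.13). HoxA had 38.0 peaks per Mb, a ratio of 1.63 (1.15 to 2.23), and HoxD had 17.5, a ratio of 0.750 (0.464 to 1.15). For scale, the 1 Mb tiles of the genome held a median of 11 CH12 peaks and 16 B cell peaks, and the top 1 in 10 of the tiles began at 38 CH12 peaks and 58 B cell peaks. HoxB and HoxC lay above both of those levels. Whether a ratio differed between the lists was not tested.

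**Figure D1:**
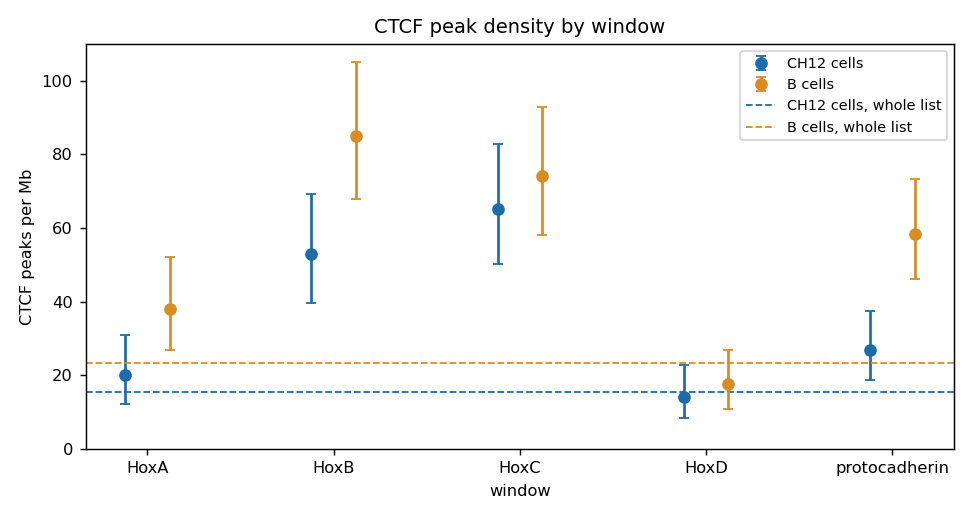
Density of CTCF peaks (peaks per Mb, y axis) in each window (x axis) for the CH12 list and the B cell list. Points are densities with exact 95% Poisson intervals and dashed lines are the whole lists, at 15.4 and 23.4 peaks per Mb. HoxB and HoxC stand far above the lines in both lists, and the intervals of HoxD include them.

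Most CH12 sites in the windows were also B cell sites, while the reverse share varied widely. Of the CH12 peaks, 98.1% in HoxB, 97.1% in protocadherin, 95.0% in HoxA, 88.2% in HoxD and 87.7% in HoxC overlapped a B cell peak, against 89.5% of the whole list. Of the B cell peaks, 79.7% (68.8 to 88.2) overlapped a CH12 peak in HoxC, 71.4% in HoxD, 61.2% in HoxB and 50.0% in HoxA. In protocadherin the share was 44.7% (33.3 to 56.6), or 34 of 76 peaks, and the whole B cell list had 58.5%. HoxC stood above the whole list and protocadherin below it, with intervals that did not include 58.5%. With the weaker peaks of each list, those under its median, left out, the protocadherin share was 27.0%, against 51.8% of the whole B cell list. With centres within 100 bp as the rule, the HoxC share was 62.2%, against 52.0% of the whole B cell list.

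The protocadherin sites found in B cells alone were 42, and they were weaker than the shared ones. Their median fold over background, the authors' value per peak, was 5.45, against 7.80 for the 34 shared peaks of that window. The same order held over the whole B cell list, with 4.62 against 7.66, and in the other windows, with 4.18 against 8.17 in HoxA, 4.48 against 8.03 in HoxB, 4.64 against 7.21 in HoxC and 5.12 against 8.82 in HoxD. Of the top 3 B cell peaks of each window, 2 lacked a CH12 peak. These were the top protocadherin peak (36816833 to 36817489) with a fold of 16.1, at percentile 99.1 of its list, and the last of the top 3 in HoxD (74493405 to 74494157, fold 10.3).

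Peak strength set HoxC apart. Scores of the CH12 list, whose scale the sources used here do not state, are read as percentiles of that list. The median CH12 peak stood at percentile 69.4 in HoxC, against 54.2 in HoxB, 52.3 in HoxA, 43.4 in HoxD and 42.3 in protocadherin, with 50.0 in the whole list by definition. In the B cell list HoxC was not the strongest window, with a median percentile of 52.4, and HoxD had the highest at 67.2. The top 3 CH12 peaks of HoxC (102572836 to 102574069, 103007182 to 103009309 and 103012193 to 103014843) stood at percentiles 99.9, 99.7 and 99.7, and each lay at an anchor of both ChIA-PET lists. The top 3 B cell peaks of HoxC (102583431 to 102584472, 102443359 to 102443863 and 103145379 to 103146069) had folds of 15, 13.9 and 13.4 and lay at no anchor.

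Strong sites of the other windows were used as anchors in part. In HoxD the top CH12 peak (74553638 to 74554636, percentile 97.9) lay at an anchor of both lists, as did the other peaks of the top 3 (74510827 to 74511551, percentile 84.7, and 74802289 to 74802966, percentile 77.4). The top 3 protocadherin CH12 peaks (38011533 to 38012462, 38042923 to 38043675 and 38094898 to 38095685), at percentiles 97.9, 90.5 and 88.3, did so too. In HoxA the top peak (52171295 to 52172284, percentile 98.2) and the last of the top 3 (51807625 to 51808367, percentile 91.0) lay at anchors of both lists, whereas the other (52161256 to 52162066, percentile 93.2) lay at none. In HoxB the top CH12 peak (95994598 to 95995485, percentile 95.9) lay at an anchor of the wild-type list alone, and the next pair (96096020 to 96096862 and 96155492 to 96156413) at anchors of both. The top B cell peak of HoxA (52550959 to 52551756, fold 16.1) lay at no anchor, that of HoxB (96657562 to 96658643, fold 18.9) at a wild-type anchor alone, and that of HoxD (74893183 to 74893782, fold 14.6) at anchors of both lists. The B cell peaks that completed the top 3 lay at no anchor (52619862 to 52620275) and at a mutant anchor alone (51745212 to 51745787) in HoxA, both with a fold of 13.2, and at no anchor (95892912 to 95893463, fold 14.4) and at a wild-type anchor alone (95972146 to 95972721, fold 14.3) in HoxB. Anchors of both lists held the second-ranked peak of HoxD (74138263 to 74138729, fold 10.9) and the last of the top 3 of protocadherin (38036757 to 38037575, fold 12.8).

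Over all windows, 51.6% of the CH12 peaks (44.2 to 58.9) lay at an anchor of either list, against 43.6% of the whole list. HoxA had the lowest share, with 5 of 20 peaks (25%, 8.66 to 49.1), and HoxD the highest, with 11 of 17 (64.7%, 38.3 to 85.8). Of the 103 distinct anchors, 96 held a CH12 peak and 102 a B cell peak, against 16565 and 16537 of the 16928 distinct anchors of the whole lists.

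**Figure D2:**
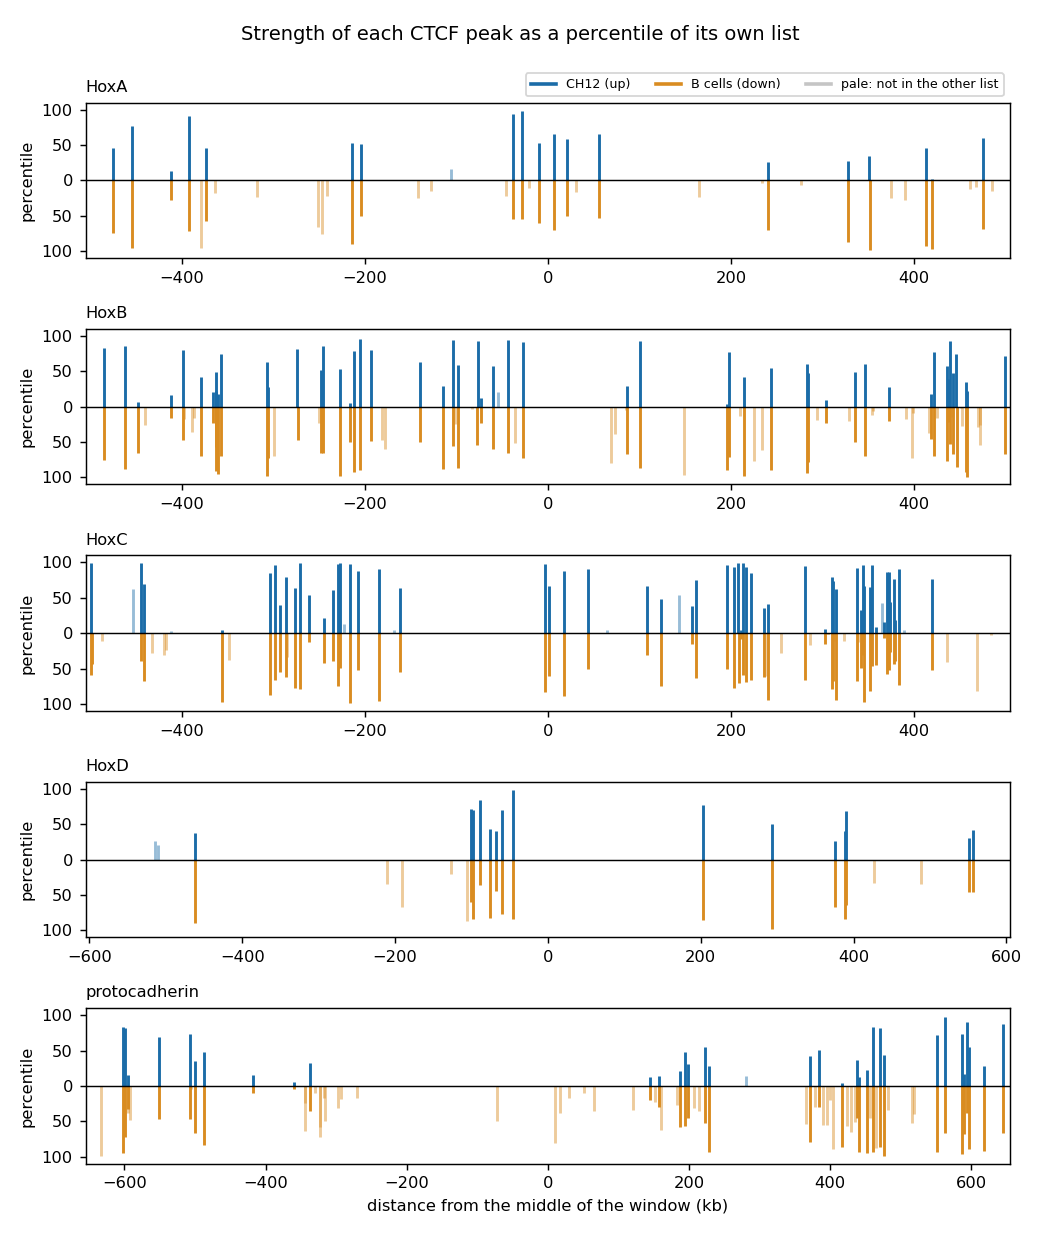
Every CTCF peak of the windows at its distance from the middle of the window (x axis, kb), with height as the percentile of its own list (y axis), CH12 upwards and B cells downwards. Pale bars are peaks without an overlapping peak in the other list. HoxC holds runs of CH12 peaks near the top percentiles, and the protocadherin window holds many pale B cell peaks, 42 in all.

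Sites were bunched within the windows. In HoxC the 100 kb from 103100001 to 103200000 held 21 CH12 and 23 B cell peaks, out of 65 and 74 in that window. In the protocadherin window the middle was nearly empty in CH12 cells, with no peak over 481.8 kb (37113161 to 37594984), where the B cell list had 15 peaks at a median percentile of 34.2. HoxD had a CH12 gap of 360.9 kb (74138744 to 74499664) holding 4 B cell peaks. The longest CH12 gaps of HoxA, HoxC and HoxB were 183.9, 158.0 and 113.0 kb.

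Loops were most numerous around HoxC among the 5 windows. The 5 windows held 113 mutant and 108 wild-type interactions, 160 distinct ones in all, of which 61 were in both lists. HoxC had 41 mutant and 42 wild-type interactions, protocadherin 29 and 23, HoxB 16 and 19, HoxD 15 and 15, and HoxA 12 and 9. Per Mb this was 41.0 mutant and 42.0 wild-type interactions in HoxC, 22.3 and 17.7 in protocadherin, 16 and 19 in HoxB, 12.5 and 12.5 in HoxD and 12.0 and 9.0 in HoxA. Over the genome covered by the peak lists there were 4.60 and 4.49 per Mb. An interaction that touches a window with 1 end counts in full there, which raises the values of the windows against that of the genome. With both ends inside, HoxC had 38 mutant and 37 wild-type interactions, protocadherin 24 and 21, and HoxB 10 and 15. HoxD had 9 and 11 of this kind, and HoxA only 2 and 2. The loops with most tags were 1 in HoxC (102528260 to 102530106 with 102572701 to 102574504), with 68 mutant and 47 wild-type tags, and 1 in protocadherin (37920764 to 37921854 with 38011349 to 38012747), with 69 mutant and 89 wild-type tags.

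The share of interactions found in both lists varied among the windows, but the intervals of the windows overlapped and no test between windows was made. In HoxA 8 of 12 mutant and 8 of 9 wild-type interactions were shared, in HoxD 10 of 15 and 10 of 15, and in HoxC 25 of 41 (61.0%) and 25 of 42 (59.5%). In protocadherin the shares were 11 of 29 mutant interactions (37.9%, 20.7 to 57.7) and 11 of 23 wild-type ones (47.8%, 26.8 to 69.4), and in HoxB 7 of 16 (43.8%) and 7 of 19 (36.8%). Over the whole lists they were 45.7% and 46.8%. Only in HoxA for the wild-type list did the interval (51.8 to 99.7) not include the share of the whole list, and in HoxC the mutant interval started at 44.5. Shared interactions carried most of the tags in every window and list, from 52.6% (wild-type HoxB) to 93.9% (wild-type HoxA). They also did so over the whole lists, with 63.8% of mutant and 61.3% of wild-type tags. With anchors matched within 10 kb, the share of wild-type interactions in the mutant list was 87.0% in protocadherin, 88.9% in HoxA and 42.1% in HoxB. Whole-list shares under that rule were not computed.

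The balance of tags between the libraries was close to that of the genome in 4 windows. The mutant share of tags over both lists was 52.6%, and it was 54.8% in HoxA (46.4 to 63.0), 49.2% in HoxB (41.8 to 56.6), 46.9% in HoxD (39.8 to 54.2) and 49.6% in protocadherin (45.1 to 54.1). In HoxC it was 58.3% (54.7 to 61.7), with 458 mutant and 328 wild-type tags. Without the HoxC interaction whose tags differed most, the share was 56.1%. The interval of that share was not computed, so whether it includes 52.6% is not shown. Shares of interactions ran from 45.7% in HoxB to 57.1% in HoxA, each interval including the 50.6% of the whole lists.

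Loop lengths differed more among windows than between libraries. The median span, between anchor midpoints, was 583.9 kb in the mutant list and 363.6 kb in the wild-type list in HoxA, 435.1 kb in both lists in HoxD, 210.0 and 115.9 kb in protocadherin, 102.1 and 119.4 kb in HoxC and 101.5 and 128.9 kb in HoxB. Over the whole lists it was 152.7 and 130.6 kb. HoxA and HoxD, the windows with fewest sites, had the longest loops in both lists. The mutant median was longer in HoxA and protocadherin and shorter in HoxB and HoxC, and these differences were not tested.

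**Figure D3:**
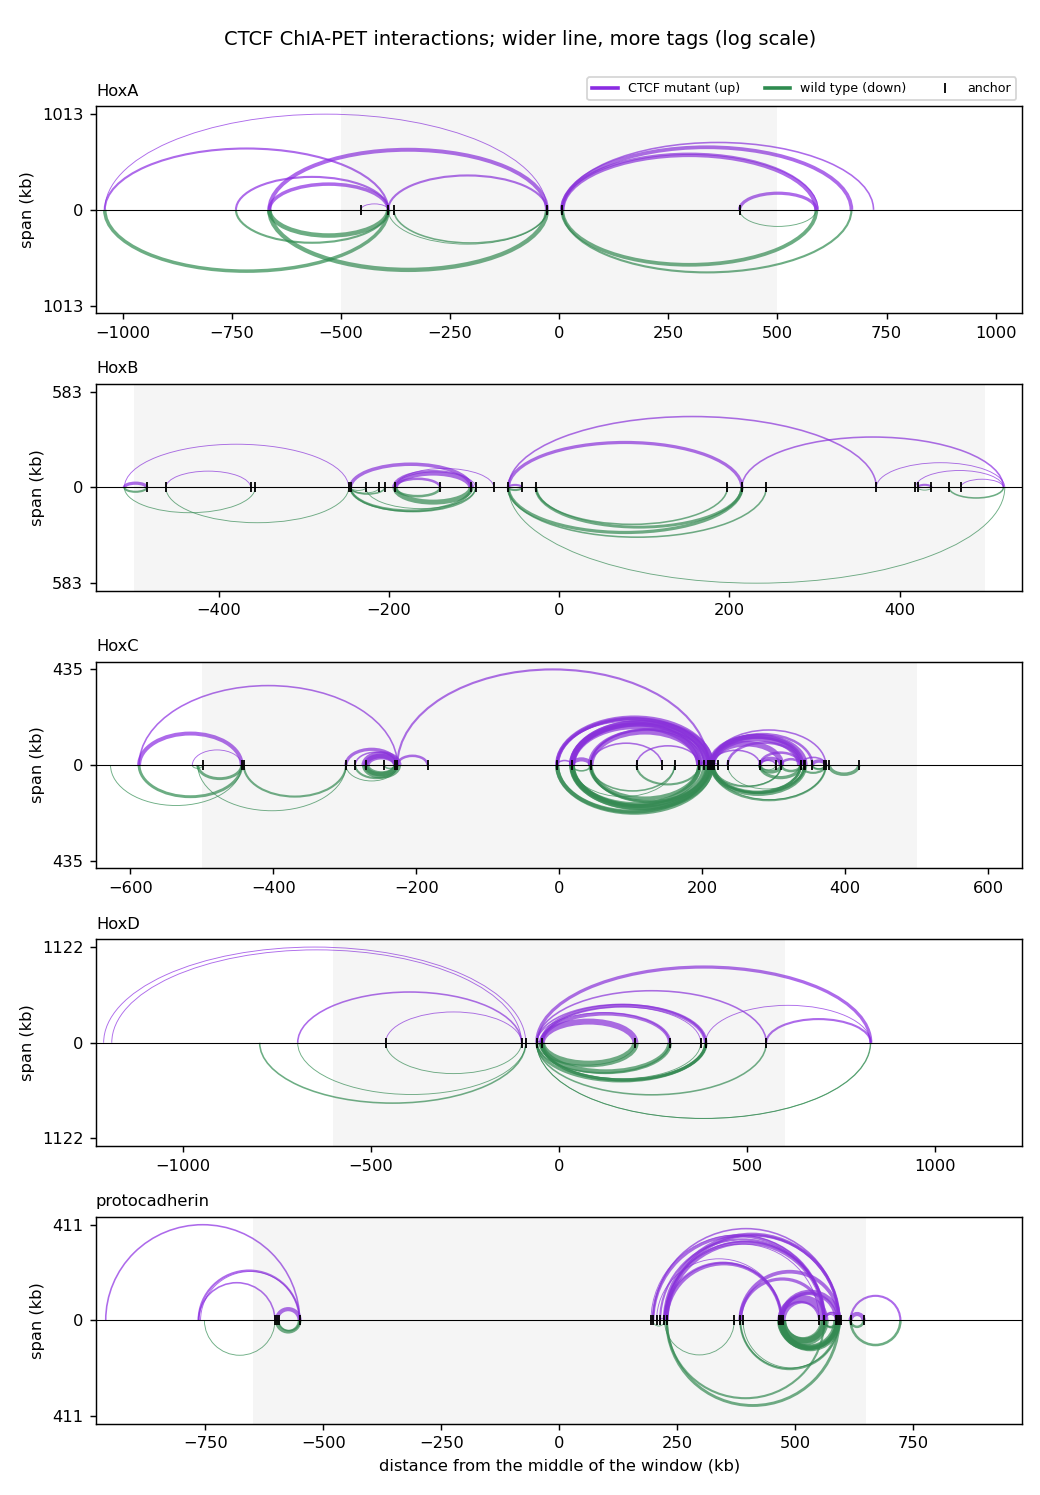
Interactions of each window, mutant upwards and wild type downwards, at their distance from the middle of the window (x axis, kb); the height of an arc is its span (y axis, kb), line width grows with tags on a log scale, the shaded area is the window and ticks are anchors. HoxA and HoxD show long arcs that start on either side of an uncrossed stretch. HoxC and protocadherin show dense arcs, and protocadherin has more long arcs in the mutant list.

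Of the 160 interactions, 2 differed in tags between the libraries beyond counting error by a two-sided exact binomial test with Benjamini-Hochberg adjustment over all interactions, against 0.986% of the 17954 interactions of the whole lists. One had more mutant tags (whole lists 0.401%) and 1 had fewer (0.585%). With 160 interactions the share in the windows is close to that background. For this test, 2 tags stood in for a count that 1 list lacked.

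**Figure D4:**
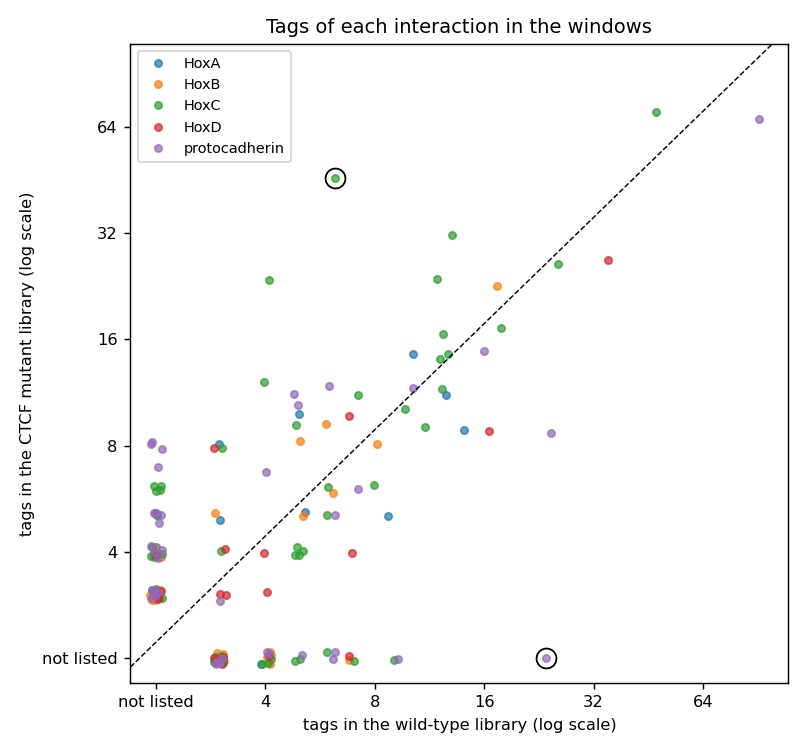
Tags of each of the 160 interactions in the mutant library (y axis, log scale) and in the wild-type library (x axis, log scale), with points moved slightly at random so that they do not cover each other. The dashed line is the ratio of all listed tags, interactions missing from a list sit at the not listed mark, and rings mark the 2 past the test, with 46 mutant and 6 wild-type tags in HoxC and none listed in the mutant against 23 wild-type tags in protocadherin.

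The HoxC interaction past the test joined the anchor at 103011748 to 103015043 with that at 103137229 to 103138342, 124.4 kb apart. It had 46 mutant and 6 wild-type tags, a ratio of 6.92 (2.95 to 19.8) or a log2 ratio of 2.79 after scaling to all listed tags, and an adjusted p of 5.3e-05 by the exact binomial test. From the same left anchor, a loop to 103109810 to 103111916 had 23 mutant and 4 wild-type tags (log2 ratio 2.38, adjusted p 0.0697), which did not pass. A loop to 103143490 to 103144675 had 17 mutant and 12 wild-type tags. The difference lay in loops to the right, since the loops to the left of this anchor had 30 mutant and 35 wild-type tags, and those to the right 109 and 30.

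A neighbouring anchor was listed in the wild type alone. The anchor at 103015855 to 103016873 lay 0.811 kb to the right and had 4 wild-type partners and 16 tags, 6 of them to the partner of the called interaction. Both anchors together had 109 mutant and 46 wild-type tags to the right. Anchors within 5 kb were also merged and their tags summed, a setting chosen after the data were seen. The left anchor then ran from 103002538 to 103022234 and the right anchor from 103137229 to 103144675, so that 6 interactions were summed. The called interaction became 69 mutant against 31 wild-type tags, with a log2 ratio of 1.01 and an adjusted p of 0.0642 by the exact binomial test. The call was lost under that setting.

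The protocadherin interaction past the test joined 37925003 to 37926120 with 38011349 to 38012747, 86.5 kb apart. It was not listed in the mutant and had 23 wild-type tags, with a ratio of 0.0785 (0.00897 to 0.318) or a log2 ratio of -3.67 and an adjusted p of 0.00158 by the exact binomial test, both resting on the 2 tags given to the mutant. Its left anchor was absent from the mutant list and had 3 partners and 35 tags in the wild-type list. The CTCF peak of wild-type CH12 cells there was of middling strength (percentile 44.0), while in the B cell list it ranked second in the window (37925238 to 37925919, fold 15). The next anchor to the left, 37920764 to 37921854, lay 3.15 kb away and was used in both lists, with 114 mutant and 139 wild-type tags.

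With anchors within 5 kb merged, this difference was smaller and another passed. The merged interaction to 38011349 to 38012747 had 69 mutant and 112 wild-type tags (log2 ratio -0.85, adjusted p 0.0129). That from the same merged anchor to the group of anchors between 38036649 and 38047410 had 24 mutant and 67 wild-type tags (log2 ratio -1.63, adjusted p 0.000186). Unmerged, the loop between 37920764 to 37921854 and 38036649 to 38037819 had 9 mutant and 25 wild-type tags (adjusted p 0.194). All rightward loops from the pair of anchors at 37920764 and 37925003 summed to 98 mutant and 174 wild-type tags.

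HoxA was divided in the same place in both libraries. No listed interaction of either list passed over the 34.0 kb from 52172571 to 52206582. The anchor on its left edge, at 52171200 to 52172570, was the strongest CH12 site of the window and reached left alone, to 3 partners with 19 mutant tags and 3 partners with 20 wild-type tags. The anchor on its right edge, at 52206583 to 52207640, reached right alone, to 4 mutant partners with 31 tags and 2 wild-type partners with 15 tags. Inside the stretch 1 CH12 peak (52190268 to 52190738, percentile 52.9) and 2 B cell peaks lay at no anchor.

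The loops of HoxA were long and mostly left the window. To the left, the anchor at 51535597 to 51536766 joined 51807426 to 51809104 with 9 mutant and 14 wild-type tags, and joined 52171200 to 52172570 with 11 and 13 over 635.7 kb. To the right, 52206583 to 52207640 joined 52788362 to 52789459 with 14 mutant and 10 wild-type tags and 52868731 to 52869799 with 10 and 5, over 581.8 and 662.2 kb. The anchor at 51807426 to 51809104 was two-sided in both lists, with 5 mutant and 4 wild-type partners. The 4 interactions found in the mutant list alone had at most 4 tags each.

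HoxD had the same layout. The 28.3 kb from 74511605 to 74539910 were crossed by no listed interaction, although they held 2 CH12 and 2 B cell peaks. The anchors to the left, at 74499259 to 74500522 and 74510771 to 74511604, had 3 and 1 partners in the mutant list and 1 and 2 in the wild-type list, each to the left. The anchor at 74539911 to 74541028 reached right alone, to 5 mutant partners with 23 tags and 7 wild-type partners with 27 tags. Partners on the left lay up to 1122 kb away in the mutant list, at 3 tags.

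Most HoxD tags were to the right of that stretch. The anchor at 74553471 to 74554698, with the top CH12 peak, had 52 mutant and 70 wild-type tags. Its loop to 74802061 to 74803167 had 26 mutant and 34 wild-type tags over 248.5 kb, that to 74893091 to 74893870 had 9 and 16, and that to 74988742 to 74989672 had 10 and 7. None of these passed the test. The anchor at 74988742 to 74989672 reached left alone in the wild-type list and had 1 mutant partner to the right, with 3 tags.

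HoxB had 2 uncrossed stretches. The stretches ran from 95953125 to 95954121 (0.997 kb) and from 96123658 to 96139783 (16.1 kb). The second lay between loops that ended on its left and the anchor at 96139784 to 96140945, which reached right alone, to 3 mutant partners with 17 tags and 4 wild-type partners with 20 tags. The main loop of the window joined 96006473 to 96007703 with 96095883 to 96096994 and had 22 mutant and 17 wild-type tags. The next by tags were from 96139784 to 96140945 to 96414198 to 96415142, with 8 mutant and 8 wild-type tags, and from 95954122 to 95955492 to 96095883 to 96096994, with 9 mutant and 6 wild-type tags.

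In HoxB a run of short loops was listed in the wild type alone. The anchor at 95954122 to 95955492 reached right to 1 mutant partner with 9 tags and to 5 wild-type partners with 20 tags. The 3 partners nearest to it, at 95971850, 95987996 and 95994314, were anchors in the wild-type list alone, each joined to it by 3 or 4 tags. The anchor at 96006473 to 96007703 reached right to 4 mutant partners with 34 tags and 2 wild-type partners with 23. None of these HoxB interactions passed the test.

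HoxC was organised around the anchor at 103011748 to 103015043. It had the most partners of the windows together with a protocadherin anchor, 10 in the mutant list with 139 tags and 8 in the wild-type list with 65 tags, on both sides. To its left, 102817481 to 102818601 joined a series of anchors: 102995288 with 31 mutant and 13 wild-type tags, 103002538 with 14 and 13, 103007128 with 26 and 25, and 103011748 with 18 and 18. That anchor at 102817481 had 6 partners and 105 tags in the mutant list, 1 of them to the left, and 6 partners and 76 tags in the wild-type list, each to the right. The loop to 102995288 had an unadjusted p of 0.0242 and an adjusted p of 0.553 by the exact binomial test, so it did not pass.

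Other HoxC anchors with 3 or more partners lay in the same series. The anchor at 102796411 to 102797964 reached right alone, to 6 mutant partners with 35 tags and 2 wild-type partners with 23, with 9 mutant and 11 wild-type tags to 103007128 and 12 in each to 103011748. The anchor at 102843612 to 102844557 was two-sided in both lists, with 48 mutant and 31 wild-type tags. Its loop to 102995288 had 23 mutant and 12 wild-type tags, and its loop to 102817481 had 12 and 4. Those at 102995288, 103002538 and 103007128 reached mostly left, with 66, 22 and 50 mutant tags against 30, 13 and 42 wild-type tags.

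To the right of the central anchor, HoxC loops formed a second series that ended at 103172269 to 103173671. That anchor reached left alone in both lists, to 3 mutant partners with 17 tags and 4 wild-type partners with 18 tags. The anchors at 103080430, 103109810 and 103137229 had 24, 39 and 68 mutant tags against 21, 23 and 31 wild-type tags. The anchor at 103143490 to 103144675 had 1 mutant partner with 17 tags and 3 wild-type partners with 19 tags. The loop between 103080430 to 103081387 and 103109810 to 103111916 had 10 tags in each library. Beyond the series, the 3.65 kb from 103173672 to 103177325 were crossed by no interaction.

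The left of HoxC held a separate, strong loop domain. The anchor at 102572701 to 102574504, with the strongest CH12 peak of the window, had 6 partners in the mutant list with 95 tags, 4 leftward and 2 rightward, and 3 in the wild-type list with 55 tags, all leftward. The loop from 102528260 to 102530106 to 102569970 to 102571268 had 14 mutant and 12 wild-type tags, beside the 68 and 47 tags of the main loop to 102572701. A loop from 102211653 to 102212811, outside the window, to 102355176 to 102356321 had 11 mutant and 7 wild-type tags. The anchor at 102355176 reached left to 2 mutant and 3 wild-type partners, and that at 102501084 to 102502242 had 1 mutant partner with 8 tags and 3 wild-type partners with 11 tags. The 179.9 kb from 102616494 to 102796410 were passed by 1 mutant interaction with 5 tags, from 102572701 to 103007128, and by none of the wild-type list.

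A long stretch in the middle of the protocadherin window had no loops in either library. No listed interaction crossed the 743.9 kb from 36900136 to 37644072, and no anchor lay there, although it held 9 CH12 peaks and 31 B cell peaks. These peaks were weaker than the others of the window, at a median percentile of 20.8 against 49.3 for CH12 cells and 30.6 against 56.2 for B cells. To the left, the anchor at 36899117 to 36900135 reached left alone, to 4 mutant partners with 24 tags and 2 wild-type partners with 14. Its loop to 36850737 to 36851644 had 12 mutant and 10 wild-type tags.

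The remaining protocadherin loops lay right of that stretch, and the anchor at 38011349 to 38012747, with the top CH12 peak, had the most partners. In the mutant list it had 10 with 120 tags, 7 leftward and 3 rightward, and in the wild-type list 6 with 128 tags, 3 on each side. The anchor at 37920764 to 37921854 had 4 partners to the right in each list and 3 to the left in the mutant list alone. The anchor at 38042767 to 38043905 reached left alone, to 6 partners in each list, with 50 mutant and 41 wild-type tags. The loop between those 2 anchors had 15 mutant and 16 wild-type tags.

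The mutant list held more long loops that began further left in this window. Over the 142.4 kb from 37678442 to 37820862 there passed 12 mutant interactions with 67 tags and 3 wild-type interactions with 15 tags. They started at anchors between 37644073 and 37678441, where 37672673 to 37673734 had 5 mutant partners with 23 tags and 2 wild-type partners with 6, and 37677436 to 37678441 had 3 mutant partners with 25 tags and 2 wild-type partners with 12. The loops from 37677436 to 38011349 and to 38042767 were in both lists, with 11 mutant and 5 wild-type tags and with 6 and 7. The other mutant loops over the 142.4 kb were not listed in the wild type and had 3 to 8 tags each. Over the whole lists the median span was also longer in the mutant, at 152.7 against 130.6 kb. None of the long loops passed the test singly, and no test was run on their sum, which was chosen after the values were seen.

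Further loops began at 37833399 to 37834751, which reached right alone, with 18 mutant and 8 wild-type tags. Its loop to 38042767 to 38043905 had 10 mutant and 5 wild-type tags, and that to 38011349 to 38012747 had 8 mutant tags and was not listed in the wild type. On the right edge the anchors between 38036649 and 38047410 shared their tags differently between the lists. The anchor at 38036649 to 38037819 had 2 mutant partners with 12 tags and 4 wild-type partners with 39 tags, and that at 38039599 to 38040631 was absent from the mutant list and had 3 wild-type partners with 16 tags. The 19.9 kb from 38047411 to 38067305 were again uncrossed, and a short loop from 38067306 to 38068423 to 38094898 to 38095910 followed, with 12 mutant and 6 wild-type tags.

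**Figure D5:**
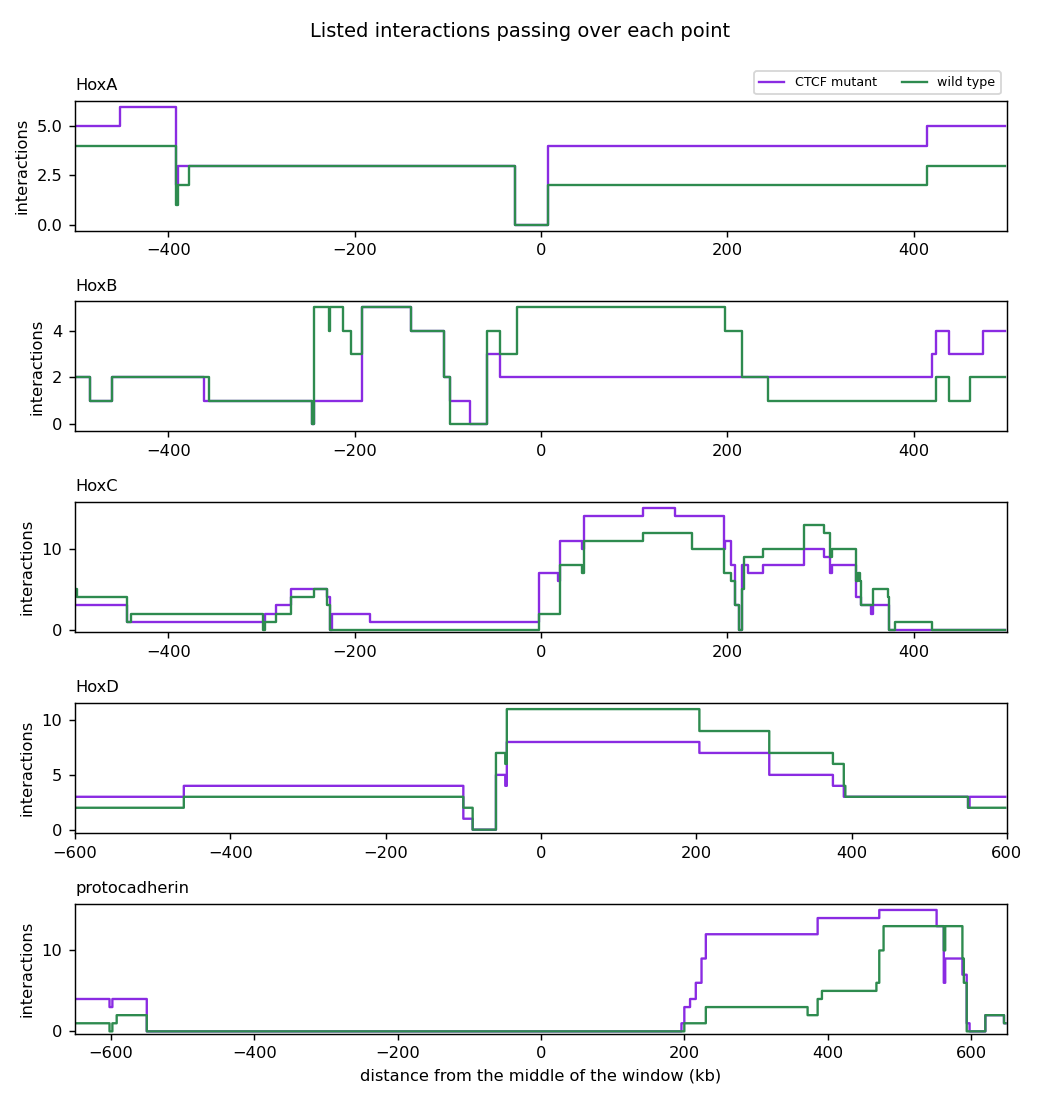
Number of listed interactions passing over each point of a window (y axis) against distance from the middle of the window (x axis, kb), for the mutant and the wild type. Both lines reach 0 in the middle of HoxA and left of the middle of HoxD, and in the protocadherin window both stay at 0 over 743.9 kb, after which the mutant line reaches 12 where the wild-type line reaches 3.

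The uncrossed share of a window showed how far it was covered by loops. It was 3.6% of HoxA and 2.58% of HoxD in each library, 2.1% of HoxB in the mutant and 4.2% in the wild type, 13.3% and 31.7% of HoxC, and 59.1% and 60.2% of protocadherin, against 60.2% and 62.1% of the genome. In HoxC, 179.9 kb that were uncrossed in the wild-type list alone lay under the single 434.9 kb mutant interaction with 5 tags named above. No interaction spanned a whole window. The uncrossed share of protocadherin was close to that of the genome in both libraries, and those of the Hox windows were lower.

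Sides were alike in the libraries. Of the 62 anchors found in both lists, 44 reached to the same side in both, 8 to both sides in both, none to opposite sides, and 10 were one-sided in 1 list only. Of the 9095 such anchors of the whole lists, 6808 reached to the same side (71.0% in the windows, against 74.9%), 563 reached to both sides in both, 183 to opposite sides, and 1541 were one-sided in 1 list only. A shared partner fixes a shared side, so this is a description. Of anchors with 3 or more partners, 13 of 27 in the mutant list (48.1%, 28.7 to 68.1) and 18 of 26 in the wild-type list (69.2%, 48.2 to 85.7) were one-sided, against 57.5% and 66.4% of the whole lists. In HoxC 4 of 12 mutant and 9 of 14 wild-type anchors were one-sided, and in protocadherin 3 of 6 and 5 of 6. The intervals of the libraries overlapped, and with anchors within 5 kb merged the shares were 41.7% and 42.9%.

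Over all windows, anchors of both lists lay on stronger CH12 sites at the median than those of 1 list. The same medians were not computed over the whole lists, so this order is not shown to be particular to the windows. The mutant list alone had 16 of the 103 anchors and the wild-type list alone 25, against 3381 and 4452 of 16928 over the whole lists. The median CH12 percentile of anchors of both lists was 82.1, against 54.4 for those of the mutant list alone and 71.7 for those of the wild-type list alone. These medians leave out the 7 anchors without a CH12 peak, each of them in 1 list alone. In the B cell list the medians were 66.4, 54.0 and 69.1, leaving out the 1 anchor without a B cell peak. In HoxC the shared anchors stood at percentile 95.2 of the CH12 list. The order did not hold in each window, since in HoxD the shared anchors stood at percentile 60.1, against 68.2 for the single anchor of the wild-type list alone, and in HoxA and HoxB they lay close to an unshared group, at 78.1 against 76.9 for the mutant list alone and at 77.4 against 75.5 for the wild-type list alone.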

How the data were processed

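The windows and the lists described were chosen with earlier results of these data known. Interactions were deposited by the authors with counts of supporting tags. Per the file headers, both ends of an interaction sit at CTCF peak calls that have a core motif, at least 3 tags support it and its size is 2 Mb or less. For each CH12 peak the authors deposited a score, under names starting with MACS. For each B cell peak, in narrowPeak layout, the deposited values are a ratio (fold over background) and a q-value as −log10. The sources used here do not say whether libraries were pooled before calling. The submitters' processing notes name build mm9 and, without roles, the tools Bowtie 1.1.1, BWA, CASAVA 1.8.2, bedtools 2.25 and SAMtools 1.2. The series has 352 samples in 98 groups; other samples were not analysed here.

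A peak or anchor belonged to a window at an overlap of 1 bp, and an interaction when either anchor did. Interactions matched when both anchors had identical coordinates, and no anchors of the lists overlapped without being identical. Starts are given 1-based. The density of a whole list is over chromosomes 1 to 19 and X, from the first to the last peak of either list. One-sided anchors had 3 or more partners, all in 1 direction. The tag comparison was an exact binomial test, two-sided by doubling the smaller tail, with 52.56%, the mutant part of the listed tags, as its null share and Benjamini-Hochberg adjustment over all 17954 interactions at 0.05, and 2 tags stood in for a count that 1 list lacked. The listed tags, 82222 mutant and 74198 wild-type, leave out weaker interactions, so library depth is unknown. Tags may hold PCR copies, so Poisson, Clopper-Pearson and test values cover counting error only. Described by rule were the top 3 peaks of each list per window, interactions with 10 or more tags or otherwise the top 3, anchors with 3 or more partners and interactions past the test; the neighbouring anchors and the summed long loops were chosen after their values were seen. Alternatives covered peak and tag thresholds, window edges, matching, scaling and merging. The tag test and the exact interval of a share were tested on simulated counts, without the floor of 3 tags or the 2 stand-in tags. The overlap, partner and merging steps were checked on small made-up examples, and the other steps were not tested. Software was matplotlib 3.10.9, scipy 1.17.1, pandas 2.3.3, numpy 2.4.6 and Python 3.11.15.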

Additional observations from a re-analysis of the deposited data

How the results depend on the processing

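No paired analysis was possible because each genotype had a single ChIA-PET library. Of 134 alternative values of the main results, 119 stayed within the exact interval of the reported value (for the count of calls, within 1.5 times) and 15 did not. Peaks at or above the median of their list gave a HoxC CH12 density ratio of 5.73, CH12 shares in the B cell list of 100% in HoxA, 89.7% in HoxB and 71.4% in protocadherin, and a B cell share in the CH12 list of 27.0% in protocadherin. Under that rule the whole lists had a CH12 share of 79.8% and a B cell share of 51.8%. Centres within 100 bp gave CH12 shares of 88.7% in HoxB and 70.8% in HoxC and a B cell share of 62.2% in HoxC. The whole lists had 79.0% and 52.0% by this rule. Windows widened by 200 kb on each side gave mutant shares of tags of 57.0% in HoxB and 54.1% in protocadherin. Anchors matched within 10 kb gave, in HoxC, 78.0% of mutant and 81.0% of wild-type interactions in the other list, and 87.0% of wild-type interactions in protocadherin. Merging anchors within 5 kb gave 42.9% one-sided wild-type anchors. Testing only the interactions in both lists left 1 call in the windows, since the other was missing from the mutant list. Of 19 alternative values of single interactions 17 kept their side of the threshold, 1 call was lost and 1 gained with anchors merged, at log2 ratios of 1.01 and -1.63, and 0 reversed. Over the whole lists the test called 177 interactions, against 253 with anchors merged, 277 with 1 tag for missing interactions, 75 with only interactions in both lists (fewer tested), 194 with scaling by shared interactions and 212 with another two-sided p. The merging, that p and the removal of the interaction whose tags differ most were chosen after seeing the data. Elsewhere the cause was not tested. Interactions under 3 tags are unlisted, so absence from a list does not show absence from the cells.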
